A study of Mus musculus with 24 samples.

Results

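The 9 genes described here belong to JAK-STAT signalling and were followed in mouse hearts during experimental autoimmune myocarditis (EAM), namely the kinases Jak2 and Jak3, the transcription factors Stat2, Stat3, Stat4 and Stat6, and the feedback inhibitors Socs1, Socs3 and Cish. They were taken by symbol from the 41388 Ensembl genes of the full count table, and all 9 were found there. RNA sequencing was available for 24 hearts, with 4 EAM and 4 control hearts at each of 3 time points, day 10 (D10), day 15 (D15) and day 21 (D21) after the first immunization. All mice were male, wild type and of the Balb/c strain (BALB/cAnNCrl in the study's methods), and were immunized at 8-10 weeks of age. EAM mice received a cardiac myosin heavy chain peptide in supplemented complete Freund's adjuvant (SCFA) on days 0 and 7, and pertussis toxin (PTX) on day 0. Control mice received SCFA with PBS on the same days and the same PTX, so adjuvant and toxin were common to all groups and no untreated heart was part of the comparison.

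Several features of the model bear on the values. Each library came from a portion of 1 heart, so immune cells, heart muscle, vessels and connective tissue were measured together, and a lower share of cells of a type cannot be told apart from less RNA per cell. Myocarditis may not develop in every immunized mouse of this strain, and the study chose hearts for sequencing that showed inflammation where possible. By the study's flow cytometry, CD45+ cells (leucocytes) were significantly increased in EAM hearts at D15 and D21. At D10 the study found raised CD45+ cells or cardiac troponin I in no EAM mouse. The labels do not say how inflamed each heart was. The labels say nothing on litters or housing, so the p-values measure the spread between these hearts.

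JAK kinases sit on the inner side of cytokine receptors and phosphorylate STAT proteins when a cytokine binds. Phosphorylated STATs form dimers, enter the nucleus and switch on target genes, among them the SOCS genes, whose proteins bind the receptors or kinases and damp the signal. In the heart the pathway is used both by muscle cells, which respond to cytokines of the interleukin-6 family through STAT3, and by infiltrating leucocytes, in which interleukin-12 and interleukin-4 act mainly through STAT4 and STAT6, respectively, and type I interferon uses STAT2.

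The promoters of the inhibitors and of Stat2 are shown first, because they carry short letter patterns known to be bound by STAT dimers or by interferon-activated complexes. Each sequence runs from 250 bases before to 50 bases after the start of the gene as RefSeq gives it on GRCm38.p6, in the direction of transcription, with matches in capitals. The patterns searched on both strands were TTCNNNGAA (the general STAT pattern), TTCNNNNGAA (the wider spacing preferred by STAT6) and GAAANNGAAA (an interferon response pattern).
Socs3: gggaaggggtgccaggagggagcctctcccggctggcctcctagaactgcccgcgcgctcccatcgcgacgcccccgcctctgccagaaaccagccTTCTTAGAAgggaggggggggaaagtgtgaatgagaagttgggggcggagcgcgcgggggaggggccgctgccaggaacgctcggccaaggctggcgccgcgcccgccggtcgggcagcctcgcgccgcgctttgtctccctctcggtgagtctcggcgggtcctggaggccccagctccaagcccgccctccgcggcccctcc
Cish: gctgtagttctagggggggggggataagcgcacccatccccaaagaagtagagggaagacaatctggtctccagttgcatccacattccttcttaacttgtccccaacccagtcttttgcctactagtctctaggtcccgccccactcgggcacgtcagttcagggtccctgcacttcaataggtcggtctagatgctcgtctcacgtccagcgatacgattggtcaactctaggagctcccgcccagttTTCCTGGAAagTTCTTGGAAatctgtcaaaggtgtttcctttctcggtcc
Socs1: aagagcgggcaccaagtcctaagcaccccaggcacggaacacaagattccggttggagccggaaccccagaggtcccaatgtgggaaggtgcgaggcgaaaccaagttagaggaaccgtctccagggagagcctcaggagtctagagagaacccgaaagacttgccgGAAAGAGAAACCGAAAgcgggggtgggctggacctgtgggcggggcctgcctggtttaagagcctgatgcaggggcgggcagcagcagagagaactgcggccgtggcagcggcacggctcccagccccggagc
Stat2: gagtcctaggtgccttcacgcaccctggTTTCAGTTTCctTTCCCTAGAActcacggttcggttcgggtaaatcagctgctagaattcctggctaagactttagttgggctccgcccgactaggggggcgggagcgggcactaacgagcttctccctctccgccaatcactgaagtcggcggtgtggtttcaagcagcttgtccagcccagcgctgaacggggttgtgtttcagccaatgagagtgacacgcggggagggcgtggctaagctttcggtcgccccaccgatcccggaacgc

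The Socs3 promoter (chr11:117969317-117969616, minus strand) held 1 TTCNNNGAA match, 154 bases before the start. The Cish promoter (chr9:107296409-107296708, plus strand) held 2 such matches, beginning at bases 1 and 12 of the gene. In the Socs1 promoter (chr16:10785487-10785786, minus strand) 2 overlapping GAAANNGAAA matches began 83 and 77 bases before the start. The Stat2 promoter (chr10:128270248-128270547, plus strand) held GAAANNGAAA on the opposite strand 222 bases before the start and TTCNNNNGAA 210 bases before it. One of the 2 Stat4 promoters held a GAAANNGAAA match 97 bases before its start, and the promoters of Jak2, Jak3, Stat3 and Stat6 held none of the 3 patterns. Among 32851 RefSeq promoters of this length, 8.30% held TTCNNNGAA, 6.95% held TTCNNNNGAA and 3.44% held GAAANNGAAA. These are matches of letters, and binding was not measured.

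In the GRCm38 annotation (GENCODE M21), Jak2 (ENSMUSG00000024789) spans chr19:29251828-29313080 and Jak3 (ENSMUSG00000031805) chr8:71676296-71690575, both on the plus strand. Stat2 (ENSMUSG00000040033) spans chr10:128270559-128292849 and Stat6 (ENSMUSG00000002147) chr10:127642986-127660957, both plus, Stat3 (ENSMUSG00000004040) spans chr11:100885098-100939540 on the minus strand, and Stat4 (ENSMUSG00000062939) spans chr1:51987148-52107189 on the plus strand. Socs1 (ENSMUSG00000038037) spans chr16:10782240-10785536 and Socs3 (ENSMUSG00000053113) chr11:117966079-117970047, both minus, and Cish (ENSMUSG00000032578) spans chr9:107296026-107302784, plus. Reads were counted over exons, and some exons are shared with other genes. Of the 3872 exon bases of Stat4, 1033 overlapped Gm28177 on the same strand, and 404 bases of Jak3 overlapped Insl3 on the same strand, so these 2 genes carry some uncertainty in how reads were assigned. Overlaps with genes of the opposite strand were 740 bases in Cish, 72 in Stat3 and 40 in Stat6, and whether the counting used strand is not stated in the labels or methods.

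The 24 libraries held 15814863 to 24980864 counted reads, and a count of 3 reads, taken as the floor, corresponds to 0.120 to 0.190 CPM (counts scaled to the library total). Genes that define heart muscle were abundant in every library, as labelled, with 7 markers (Myh6 and Tnnt2 among them) summing to between 7228 and 33435 CPM. Levels below are CPM after TMM normalization over all 24 hearts. One D10 EAM heart, replicate 1, stood apart from the other 3 of its group, with 194 CPM of the pan-leucocyte gene Ptprc (CD45) against 27.7 to 56.7 CPM, and D10 fold changes are therefore given with and without it. The 4 D21 EAM libraries carry another library code than the other 20, so at D21 the code and EAM cannot be told apart.

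In the 12 control hearts the 9 genes covered a wide range of levels per kb of exon, the scale on which genes can be compared. Stat3 was the highest at 25.5 ± 2.73 CPM per kb (mean ± SD), followed by Stat6 at 18.9 ± 1.05, Cish at 12.7 ± 3.25 and Jak2 at 12.6 ± 0.94. Jak3, best known from lymphocytes, stood at 7.77 ± 1.22 CPM per kb, Stat2 at 5.82 ± 0.60 and Socs3 at 5.28 ± 3.24. The place of Socs3 turned with the day, since its D10 controls held 9.23 CPM per kb, above Jak3 (8.63) and Stat2 (6.03), and its D15 and D21 controls 3.28 and 3.33, below both. The ranges of these neighbours overlapped except between Stat3 and Stat6 and between Jak2 and Jak3. Socs1 lay below all of them at 0.74 ± 0.22 CPM per kb, and Stat4, a factor of T and NK cells, was at 0.05 ± 0.02, with 1 to 6 reads in each control heart.

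**Figure D1:**
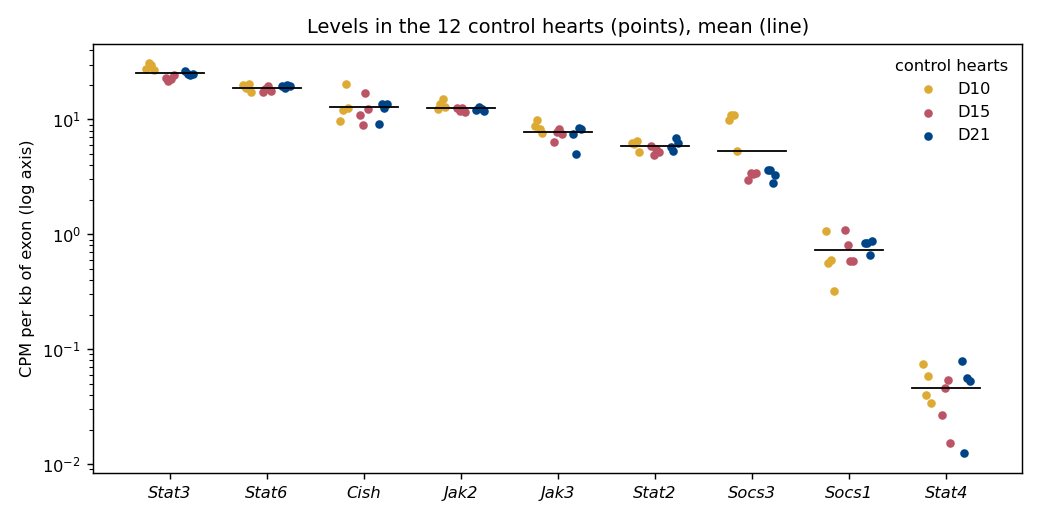
Level per kb of exon (CPM per kb, log axis) of each gene in the 12 control hearts, with points coloured by time point and lines at the mean of the 12. Stat3 is highest at 25.5 and Stat4 lowest at 0.05 CPM per kb, and the Socs3 points of D10 lie above those of D15 and D21.

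At D15 the inhibitors Socs1 and Socs3, Stat4, Stat2 and Jak2 rose in EAM hearts, from 2.71-fold for Jak2 to 28.9-fold for Socs1. Jak3, Stat3 and Stat6 were also higher in every EAM heart than in every control heart, but by less than 2-fold, and Cish did not separate the groups. A gene was called when edgeR's quasi-likelihood test gave a false discovery rate (FDR, Benjamini-Hochberg over all genes tested) below 0.01 and the change was at least 2-fold. By this rule 5 of the 9 genes were called higher and none lower, beside 18.1% of all 15693 tested genes called higher. An FDR below 0.01 without the limit on the fold was reached by 8 of the 9, all higher (33.2% of all genes), and 8 of the 9 showed no overlap between the groups (34.5% of all genes higher without overlap). The median log2 fold change of the 9 genes was 1.44, beside 0.02 for all genes. Because the 9 genes were chosen with earlier results of these data known, their shares at each time point are descriptions and not an independent check. Stat4 passed the read filter (at least 10 reads in at least 4 hearts) through the EAM hearts, with 1 to 4 reads in D15 controls against 57 to 77. At D21 it had 1 to 6 reads in controls against 11 to 67.

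At D10 no gene of the 9 was called, and neither was any of the 15029 genes tested (0%). Stat4 was too low to be tested at this time point. Of the 8 tested, all had a fold change above 0 (48.5% of all genes) and 5 reached an unadjusted p below 0.05 on the higher side (9.71% of all genes), with edgeR's adjusted p at 0.328 or above. Stat3, Stat6 and Socs3 showed no overlap between the groups (4.41% of all genes), and these were also the genes without overlap when EAM replicate 1 was left out. Without that heart 4 of the 8 reached an unadjusted p below 0.05 (11% of all genes, in either direction) and the lowest adjusted p was 0.304. The likelihood ratio test of edgeR, DESeq2 and limma-voom also called none of the 8, with 4, 5 and 2 of them at an unadjusted p below 0.05 (14.1%, 17% and 12.4% of all genes, in either direction). Over all genes the likelihood ratio test called 47 and DESeq2 52, and limma-voom 0. The lowest adjusted p among the 8 was 0.01001, 0.0399 and 0.392 in these tests.

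At D21 Stat4 and Socs3 rose in EAM hearts, and the remaining genes did not meet the criteria. These 2 calls among 9 genes stood beside 4.13% of 15266 tested genes called higher. All 9 had a fold change above 0 (49.5% of all genes), 7 were higher at an unadjusted p below 0.05 (25.2%), and Jak2, Stat4, Stat6, Socs1 and Socs3 showed no overlap between the groups (17.8%). Both calls were lost when any 1 control heart, EAM replicate 1 or EAM replicate 2 was left out, which left 0 of 9 called. In those fits 0% to 0.272% of all genes were called higher, so few calls remained over the whole table. Socs1 was called in addition when EAM replicate 3, the heart with the lowest values of its group for 6 of the 9 genes, was left out, which gave 3 of 9, beside 10.9% of all genes called higher. With all 8 hearts limma-voom called neither gene (adjusted p = 0.0268 for Socs3 and 0.0150 for Stat4), beside 0.524% of all genes called higher.

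**Figure D2:**
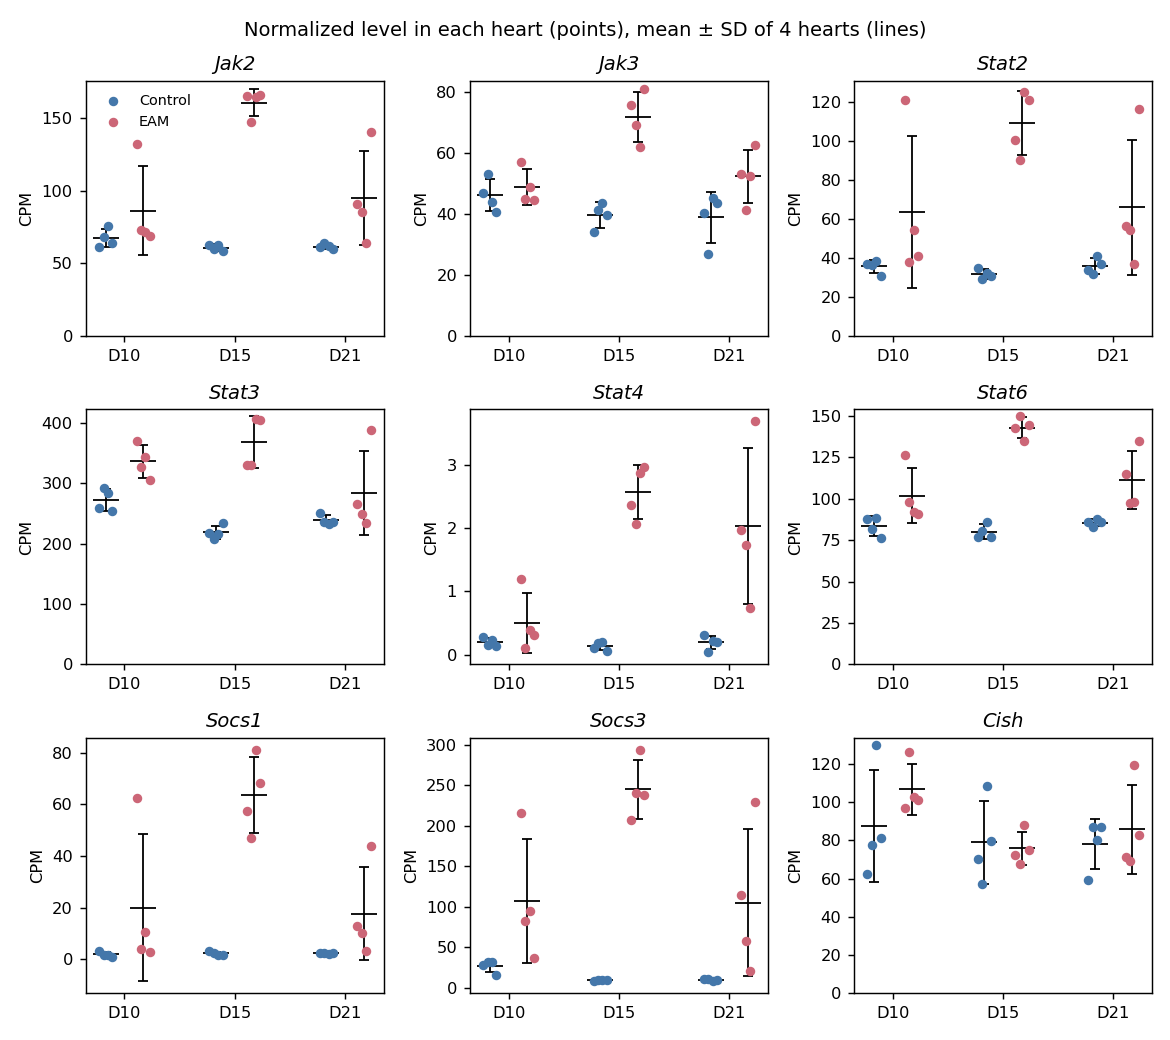
CPM of each gene in each heart (linear axes), control in blue and EAM in red, with horizontal lines at the mean and bars of 1 SD of 4 hearts. At D15 the EAM points lie above all control points in every panel except Cish, and at D10 and D21 a single EAM heart, replicate 1 and replicate 4, lies highest in 8 of the 9 panels.

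Among the kinases, Jak2, which serves interferon-gamma, interleukin-12, growth hormone and other receptors, was found at 62.7, 59.7, 63.01 and 58.3 CPM in the D15 control hearts and at 165, 147, 165 and 166 CPM in the D15 EAM hearts. The groups were far apart, with a log2 fold change of 1.44 ± 0.06 (SE) and an edgeR adjusted p of 1.32e-07. At D10 the EAM hearts held 132, 73.1, 71.5 and 68.9 CPM and the controls 61.3, 68.1, 76.0 and 64.2 CPM. Only replicate 1 exceeded the control range, and the log2 fold change was 0.35 ± 0.21 with it (edgeR adjusted p = 0.398) and 0.07 without it. At D21 the EAM hearts held 90.7, 85.3, 64.5 and 140.4 CPM against 59.8 to 64.0 CPM in controls, with replicate 3 just above the control range. The log2 fold change at D21 was 0.65 ± 0.22 (edgeR adjusted p = 0.0494), and 0.39 without replicate 4.

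Jak3, the kinase of the common gamma chain of interleukin-2, interleukin-4 and interleukin-7 receptors, changed less than Jak2. It stood at 34.0, 41.3, 43.7 and 39.6 CPM in D15 controls and at 75.6, 69.1, 61.8 and 80.8 CPM in D15 EAM hearts. Every EAM heart lay above every control, at a log2 fold change of 0.90 ± 0.11 and an edgeR adjusted p of 5.03e-05, short of 2-fold. The D10 groups overlapped widely, at 40.7 to 53.2 CPM in controls and 44.5 to 57.0 CPM in EAM hearts, and the log2 fold change of 0.07 ± 0.11 (edgeR adjusted p = 0.747) became -0.02 without EAM replicate 1. At D21 EAM hearts held 53.0, 41.3, 52.3 and 62.5 CPM and controls 40.2, 26.8, 45.1 and 43.7 CPM, and only EAM replicate 2 fell within the control range. Its log2 fold change was 0.45 ± 0.19 (edgeR adjusted p = 0.0951).

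Among the transcription factors, Stat2, a factor of the response to type I interferon, was at 34.9, 29.1, 32.6 and 31.0 CPM in D15 controls and at 101, 90.5, 125 and 121 CPM in D15 EAM hearts. The lowest EAM heart held more than the highest control, at a log2 fold change of 1.81 ± 0.11 (edgeR adjusted p = 1.02e-06). At D10 its EAM values were 121, 37.9, 54.4 and 41.1 CPM against 36.9, 36.4, 38.6 and 30.9 CPM in controls. Replicate 1 was at its D15 level while replicate 2 lay within the control range, and the log2 fold change of 0.82 ± 0.35 (edgeR adjusted p = 0.328) became 0.30 without replicate 1. At D21 the EAM hearts held 56.7, 54.2, 36.8 and 117 CPM and the controls 34.0, 31.7, 40.9 and 37.0 CPM. Replicate 3 lay within the control range, and the log2 fold change of 0.91 ± 0.33 (edgeR adjusted p = 0.0605) became 0.47 without replicate 4.

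Stat3, the main effector of the interleukin-6 family, was at 217, 207, 216 and 234 CPM in D15 controls and at 330.4, 331, 407 and 405 CPM in D15 EAM hearts. The log2 fold change was 0.79 ± 0.10 (edgeR adjusted p = 5.77e-05), below 2-fold, with no overlap. At D10 the EAM hearts held 371, 328, 344 and 305 CPM against 259.8, 292, 283 and 254 CPM in controls. The D10 groups did not overlap, at a log2 fold change of 0.29 ± 0.09 with replicate 1 (edgeR adjusted p = 0.328) and 0.25 without it. At D21 the EAM hearts held 266, 249, 235 and 388 CPM and the controls 251, 236, 232 and 236 CPM. Only replicates 1 and 4 exceeded the controls, and the log2 fold change of 0.28 ± 0.17 (edgeR adjusted p = 0.221) became 0.08 without replicate 4.

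Stat4, which passes on interleukin-12 and drives type 1 responses of T and NK cells, was close to the detection floor in controls. It was at 0.104, 0.177, 0.207 and 0.0589 CPM (2, 3, 4 and 1 reads) in D15 controls and at 2.37, 2.07, 2.87 and 2.97 CPM (57, 59, 68 and 77 reads) in D15 EAM hearts. The log2 fold change was 4.20 ± 0.30 (edgeR adjusted p = 2.35e-06). At D21 the EAM hearts held 1.97, 1.74, 0.735 and 3.70 CPM (40, 32, 11 and 67 reads) against 6, 1, 5 and 4 reads in controls. All EAM hearts were above all controls, at a log2 fold change of 3.39 ± 0.60 (edgeR adjusted p = 0.00723), which ranged from 2.94 to 3.65 when single hearts were left out, with the adjusted p between 0.000836 and 0.0303. At D10 the EAM hearts held 27, 2, 7 and 6 reads and the controls 5, 3, 4 and 2, so that replicate 1 alone was clearly higher.

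Stat6, the factor of interleukin-4 and interleukin-13, was also higher at D15. It stood at 76.7, 80.3, 86.3 and 77.1 CPM in D15 controls and at 142, 150.2, 135 and 144 CPM in D15 EAM hearts. The log2 fold change was 0.87 ± 0.06 (edgeR adjusted p = 2.96e-06), again without overlap and short of 2-fold. At D10 the EAM hearts held 126, 98.3, 91.8 and 90.9 CPM against 76.1 to 88.7 CPM in controls, and at D21 they held 115, 97.2, 98.3 and 135 CPM against 82.7 to 88.0 CPM. Neither time point showed overlap, at log2 fold changes of 0.27 ± 0.12 (edgeR adjusted p = 0.328) and 0.40 ± 0.12 (edgeR adjusted p = 0.0374). The D10 value became 0.15 without replicate 1.

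Among the inhibitors, Socs1, which blocks JAK kinases directly and is known for restraining interferon-gamma signals, was at 3.18, 2.36, 1.71 and 1.71 CPM in D15 controls and at 57.2, 47.1, 81.2 and 68.3 CPM in D15 EAM hearts. This was a log2 fold change of 4.85 ± 0.24 (edgeR adjusted p = 2.17e-07). At D10 the EAM hearts held 62.4, 3.91, 10.7 and 2.80 CPM against 3.08, 1.64, 1.74 and 0.925 CPM in controls. Replicate 1 was at its D15 level and replicate 4 within the control range, so that the log2 fold change of 3.42 ± 1.01 (edgeR adjusted p = 0.328) became 1.62 without replicate 1. At D21 the EAM hearts held 12.8, 10.2, 3.21 and 43.8 CPM against 2.44, 2.45, 1.92 and 2.56 CPM in controls. All EAM hearts were above all controls, but replicate 3 was close to them, and the log2 fold change of 2.94 ± 0.71 did not meet the criteria (edgeR adjusted p = 0.0176). Without replicate 4 it was 1.93.

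Socs3, the inhibitor that acts on receptors of the interleukin-6 family, had the lowest adjusted p of the 9 at D15. It stood at 8.65, 9.80, 9.68 and 9.77 CPM in D15 controls and at 208, 239.9, 294 and 238 CPM in D15 EAM hearts. The log2 fold change was 4.73 ± 0.12 (edgeR adjusted p = 9.74e-09). At D10 the EAM hearts held 215, 82.5, 94.8 and 36.5 CPM against 28.7, 31.5, 31.3 and 15.3 CPM in controls. There was no overlap, and the log2 fold change of 1.99 ± 0.49 (edgeR adjusted p = 0.328) was 1.40 without replicate 1. At D21 the EAM hearts held 114, 57.6, 20.4 and 229 CPM against 10.5, 10.5, 8.05 and 9.47 CPM in controls. The log2 fold change was 3.49 ± 0.66 (edgeR adjusted p = 0.00900) and ranged from 2.77 to 3.81 when single hearts were left out, with the adjusted p between 0.000509 and 0.0350.

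Cish, an inhibitor induced by STAT5 downstream of interleukin-2 and growth hormone, did not follow Socs1 and Socs3. It was at 70.4, 57.0, 109 and 79.8 CPM in D15 controls and at 72.5, 67.8, 88.1 and 74.9 CPM in D15 EAM hearts. The EAM values lay wholly within the control range, at a log2 fold change of -0.02 ± 0.18 (edgeR adjusted p = 0.922). The groups also overlapped at D10, with 97.0 to 127 CPM in EAM hearts and 62.1 to 130.1 CPM in controls, and at D21, with 69.2 to 119.8 CPM and 59.0 to 87.0 CPM. The log2 fold changes there were 0.27 ± 0.21 (edgeR adjusted p = 0.484, and 0.32 without EAM replicate 1) and 0.15 ± 0.19 (edgeR adjusted p = 0.563).

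**Figure D3:**
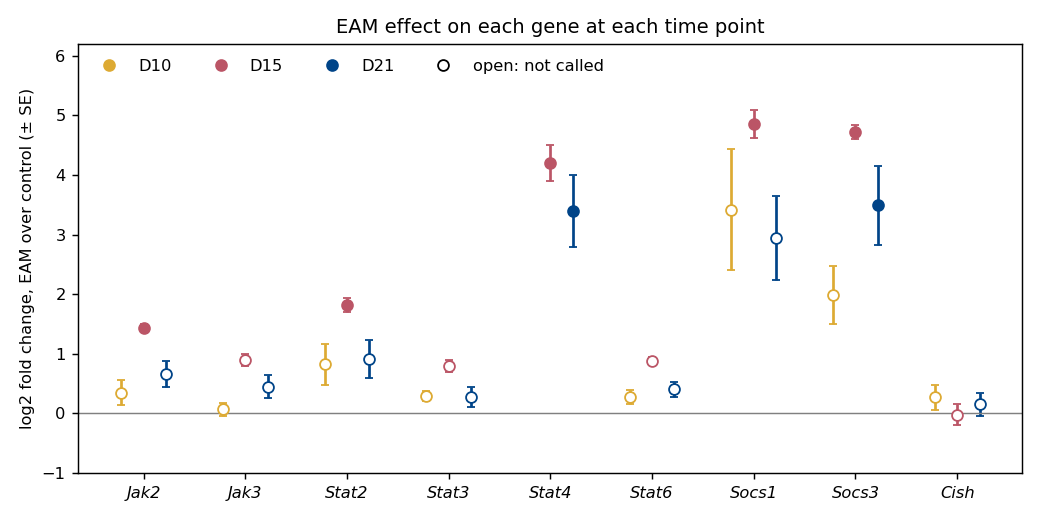
Log2 fold change of EAM over control hearts with its standard error (vertical axis) for each gene at D10, D15 and D21, with filled points for called genes. Stat4 has no D10 point because it was not tested there, and the D15 point is the highest for every gene except Cish, which stays between -0.02 and 0.27.

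Differences in the EAM effect from one time point to the next were tested in a single fit of all 24 hearts. From D10 to D15 the effect grew for Jak2, by 1.04 ± 0.27 on the log2 scale (edgeR adjusted p = 0.00488), and for Socs3, by 2.69 ± 0.71 (edgeR adjusted p = 0.00589). These 2 of 9 stood beside 5.38% of 16318 genes called higher. Both rest on D10 hearts that varied widely. Without D10 EAM replicate 1, Jak2, Stat2, Stat4, Socs1 and Socs3 were all called, with growth of 1.37, 1.51, 3.76, 3.23 and 3.32, beside 12.7% of all genes called higher in that fit. When D10 EAM replicate 2, 3 or 4, D10 control replicate 3, D15 control replicate 2 or 4, or D15 EAM replicate 4 was left out, none of the 9 was called (2.88% to 4.11% of all genes were), and without 1 of 6 other hearts only Jak2 or only Socs3 was called. The growth for Jak3 (0.78 ± 0.21) and Stat6 (0.55 ± 0.14) reached adjusted p-values of 0.00570 and 0.00528 in edgeR but not 2-fold, and Cish had a value of -0.34 ± 0.30 (edgeR adjusted p = 0.362).

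From D15 to D21 none of the 9 was called by edgeR's quasi-likelihood test (0.919% of all genes called lower), with 4 lower at an unadjusted p below 0.05 (17.3% of all genes). The likelihood ratio test, DESeq2 and limma-voom called none either (1.54%, 1.54% and 0.919% of all genes called lower), with 5, 5 and 4 lower at that level (39.9%, 41.5% and 41.3% of all genes, in either direction). In the quasi-likelihood test the 4 were Jak2 (-0.78 ± 0.27), Jak3 (-0.43 ± 0.21), Stat3 (-0.50 ± 0.17) and Stat6 (-0.46 ± 0.14). Their edgeR adjusted p-values were 0.0351, 0.119, 0.0320 and 0.0229. Larger but more variable decreases in Stat2 (-0.90 ± 0.43), Socs1 (-1.91 ± 1.10) and Socs3 (-1.24 ± 0.71) did not reach an unadjusted p below 0.05. Their edgeR adjusted p-values were 0.124, 0.197 and 0.197. D21 EAM replicate 4 was the highest of its group for 8 of the 9 genes and replicate 3 the lowest for 6. Without replicate 4 the effect on Jak2 fell by 1.02 and that on Stat2 fell by 1.32 (edgeR adjusted p = 0.00177 and 0.00967), beside 2.68% of all genes called lower.

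In control hearts, which all carried adjuvant and toxin, Socs3 fell after D10 and no other gene of the 9 was called. It went from 26.7 ± 7.68 CPM at D10 to 9.47 ± 0.555 CPM at D15 and 9.63 ± 1.16 CPM at D21 (mean ± SD, n = 4). The log2 changes were -1.48 ± 0.18 (edgeR adjusted p = 0.00425) and -1.47 ± 0.18 (edgeR adjusted p = 0.00294), with 0.0718% and 0.353% of 15311 genes called lower. Socs3 and Stat3 were the 2 genes whose D10 controls lay above all D15 and all D21 controls, as did 5.62% and 7.74% of all genes. The D15 call was lost without D10 control replicate 2 or without D15 control replicate 1, 2 or 3, and the D21 call without D21 control replicate 3, each time leaving 0 of the 8 tested genes called and 0% to 0.0583% of all genes called lower. Stat3 showed a smaller decline of the same direction, -0.30 ± 0.06 to D15 (edgeR adjusted p = 0.0220) and -0.19 ± 0.06 to D21 (edgeR adjusted p = 0.0448). Summed neutrophil markers (7 genes, S100a8 and S100a9 among them) were also higher in D10 controls, at 135 to 245 CPM, than in D15 controls, at 17.6 to 84.5 CPM, or D21 controls, at 13.8 to 100.2 CPM, and their part in the Socs3 values was not tested. Because the D10 controls were higher, the D10 and D15 fold changes of Socs3 start from different levels, while its EAM means were 107 ± 76.2 CPM at D10 and 245 ± 35.9 CPM at D15.

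Leucocyte transcripts moved with these genes. Ptprc was at 305, 256, 243 and 299.5 CPM in D15 EAM hearts and at 16.8, 16.5, 17.8 and 20.7 CPM in D15 controls. Relative to Ptprc, Socs3 was higher in D15 EAM hearts than in controls, with a log2 ratio of Socs3 to Ptprc CPM of -0.18 ± 0.35 against -0.92 ± 0.14 and no overlap. Jak2 was lower relative to Ptprc (-0.77 ± 0.15 against 1.77 ± 0.19), as were Jak3, Stat2, Stat3, Stat6 and Cish, all without overlap. For Stat4 (-6.76 ± 0.28 against -7.19 ± 0.94) and Socs1 (-2.14 ± 0.40 against -3.05 ± 0.54) the ratios overlapped. At D10, EAM replicate 2 held 27.7 CPM of Ptprc, within the control range of 23.9 to 38.6 CPM, and 82.5 CPM of Socs3, above the control range. At D10 and D21 the Socs3 ratios overlapped, at -0.19 to 1.58 in EAM hearts against -0.64 to 0.13 at D10 and at -1.26 to 0.0042 against -1.63 to -0.82 at D21. The Socs1 ratios differed by -0.06 at D21. These ratios were chosen after the values were seen and are given without a test.

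**Figure D4:**
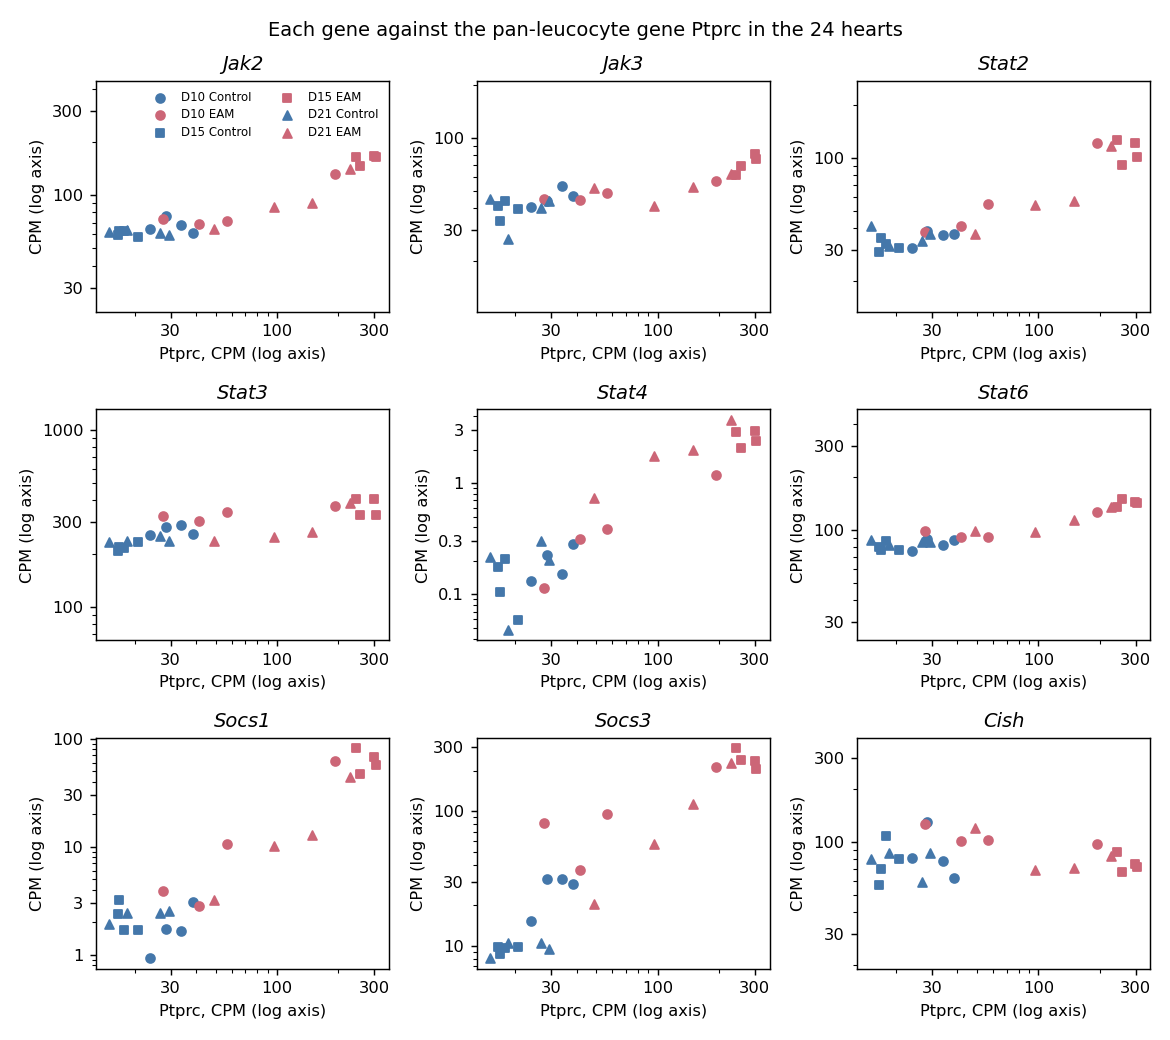
CPM of each gene (vertical, log axis) against CPM of Ptprc (horizontal, log axis) in the 24 hearts, with control hearts in blue, EAM hearts in red and a marker shape for each time point. Socs1, Socs3 and Stat4 climb with Ptprc across the EAM hearts, the other genes climb less, and Cish shows no rise.

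The marker lists of cell types gave the following counts and sums. Over all tested genes, 18.1% were called higher and 12.9% lower at D15, and 4.13% and 1.16% at D21. With any 1 D21 control heart left out, only 0% to 0.0128% of all genes were called higher at D21. All 5 leucocyte markers were called higher at D15 and at D21, and their sum was 1141 to 1487 CPM in D15 EAM hearts against 95.5 to 116.9 CPM in controls. Monocyte and macrophage markers were called higher for 8 of 8 genes at D15 and 3 of 8 at D21, with sums of 1280.0 to 1717 CPM in D15 EAM hearts against 173 to 199 CPM. Of the neutrophil markers 7 of 7 were called higher at D15 and 1 of 7 at D21, of the T cell markers 7 of 8 and 6 of 8, and of the NK cell markers 5 of 5 and 3 of 4 tested. The other T cell marker went the opposite way at D15, lower at an unadjusted p below 0.05 in edgeR's quasi-likelihood test (37.3% of all genes). T cell markers summed to 52.6 to 71.6 CPM in D15 EAM hearts against 14.7 to 16.9 CPM in controls, and NK cell markers to 24.8 to 53.3 CPM against 1.04 to 2.66 CPM. B cell markers summed to 2.02 to 12.01 CPM in D15 EAM hearts against 0.824 to 2.19 CPM in controls, with 1 of 3 tested called, and none of 5 mast cell markers was called at D15 while 1 was called lower at D21. Heart muscle markers summed to 7228 to 18508 CPM in D15 EAM hearts against 26639 to 31300 CPM in controls, with 4 of 7 called lower. Of the fibroblast markers, 1 of 6 was called higher at D15, and the median log2 fold change was 0.43. Their sum, in which abundant genes weigh most, was 3233 to 6571 CPM in EAM hearts against 1330 to 1553 CPM in controls. Endothelial markers, with 1 of 6 called lower, summed to 761 to 861 CPM against 1056 to 1373 CPM. Neither sum overlapped between the groups. No marker was at 0 in every heart of a group, none was called at D10, and the part of cell composition in the values of the 9 genes was not tested.

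Of 9 other JAK, STAT and SOCS genes, 1 was called higher at D15 (18.1% of all genes) and none at D10 or D21 (0% and 4.13%). Tyk2, a kinase of interferon and interleukin-12 receptors, rose 2.01-fold, from 32.3 ± 2.33 to 63.2 ± 4.11 CPM. Named after their values were seen, Stat5b, Socs5 and Socs7 were lower at D15 at log2 fold changes of -0.48, -0.42 and -0.59, and Jak1 and Socs2 higher at 0.39 and 0.45, each with an edgeR adjusted p below 0.01 and less than 2-fold. The median log2 fold change of the 9 other genes at D15 was -0.03, beside 0.02 for all genes.

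Of 32 listed ligands, 18 passed the read filter at D15 and 11 at D10 and at D21. At D15, 13 of the 18 were called higher and 1 lower (18.1% and 12.9% of all genes), and at D21 1 of 11 was called higher (4.13%). Ifng, Il11, Il12a, Il13, Il27, Csf2 and Csf3 were tested at D15 but not at D10 or D21. With at most 0.192 CPM on average in D15 controls, they passed the filter through the EAM hearts. Their calls as higher, and their part in the median, therefore follow in part from the filter. Il6 rose from 0.231 ± 0.0818 to 45.4 ± 18.6 CPM at D15, and Ifng stood at 4.61 ± 1.70 CPM against 0.0277 ± 0.0321 CPM. Csf3, the granulocyte growth factor, had no read in D15 controls and 5.20 ± 2.60 CPM in EAM hearts, at least 31.3-fold higher when 3 reads per library are taken as the floor. Ctf1, cardiotrophin-1, was the ligand that fell, from 13.6 ± 0.672 to 4.69 ± 1.59 CPM. The median log2 fold change of the tested ligands was 3.67, or 3.12 with the 2 genes without control reads set at their lower bounds. Osm, oncostatin M, was called at both time points, at 6.74 ± 0.386 against 0.211 ± 0.136 CPM at D15 and 2.66 ± 1.84 against 0.246 ± 0.126 CPM at D21.

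Of 35 receptor genes tested at D15, 22 were called higher and 4 lower (18.1% and 12.9% of all genes), at a median log2 fold change of 1.72, and at D21 12 of 33 were called higher and none lower (4.13% of all genes called higher), with a median of 0.91. Without D21 control replicate 1, 2 or 3 no gene of the whole table was called higher at D21, and without replicate 4 only 2 genes were. Csf2rb, the shared chain of the interleukin-3, interleukin-5 and GM-CSF receptors, rose from 8.59 ± 1.77 to 422 ± 15.5 CPM at D15, though reads may be shared with its close copy Csf2rb2. Il12rb1, the receptor chain upstream of STAT4, rose from 0.196 ± 0.136 to 8.42 ± 1.32 CPM, and the interleukin-13 decoy receptor Il13ra2 from 0.0979 ± 0.0575 to 4.70 ± 1.49 CPM. Both, and Il23r (0.0388 CPM in D15 controls), passed the read filter at D15 through the EAM hearts, as Il12rb1 did at D21 (0.169 CPM in controls). The 4 receptors called lower were Ghr, Prlr, Lepr and Epor. Ghr, the growth hormone receptor, went from 291 ± 14.5 to 128 ± 17.7 CPM, and Prlr, the prolactin receptor, from 26.4 ± 4.30 to 6.38 ± 2.79 CPM. Lepr (leptin) went from 15.8 ± 2.60 to 7.72 ± 2.06 CPM and Epor (erythropoietin) from 2.28 ± 0.333 to 0.746 ± 0.224 CPM. At D21 the largest receptor changes were in Il21r (0.891 ± 0.209 to 18.1 ± 13.5 CPM), Il12rb1 and Il7r (0.813 ± 0.211 to 14.2 ± 6.99 CPM).

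Of 16 other regulators, 6 were called higher at D15 and none lower (18.1% and 12.9% of all genes), the median log2 fold change being 0.29. Named after their values were seen, the phosphatase Ptpn11 and the adaptor Sh2b1 were lower at log2 fold changes of -0.78 and -0.73, short of 2-fold (edgeR adjusted p = 0.000480 and 3.35e-05). The phosphatases Ptpn6 (SHP-1, a brake of leucocyte signalling) and Ptpn1, and the adaptor Sh2b2, led this list at 14.9-fold, 5.77-fold and 6.86-fold. Ptpn6 was the 1 regulator of 16 called at D21, at 7.32-fold, beside 4.13% of all genes called higher.

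Most of the listed STAT targets were called at D15, with 7 of 7 for STAT3, 4 of 6 for STAT4, 3 of 5 for STAT5 and 6 of 8 for STAT6, all higher (18.1% of all genes). Their median log2 fold changes were 2.51, 3.93, 2.14 and 2.45. All gene lists were chosen with earlier results of these data known, so these counts are descriptions, and STAT activity was not measured. Ifng, Tbx21, Arg1 and Ccl17, with at most 0.124 CPM on average in D15 controls, passed the read filter there through the EAM hearts. Arg1 did so at D21 too (0.206 CPM in controls). Among STAT3 targets, the acute-phase gene Saa3 rose from 0.979 ± 0.242 to 412 ± 95.4 CPM, Timp1 from 5.73 ± 1.09 to 472 ± 38.5 CPM and Lcn2 from 8.43 ± 4.38 to 449 ± 77.3 CPM. The STAT4 targets Il18rap and Tbx21, the latter the master regulator of type 1 T cells, rose 36.8-fold and 25.6-fold. Il2ra and Pim1 on the STAT5 list rose 7.09-fold and 4.42-fold. The STAT6 targets Arg1, Ccl17 and Chil3, markers of alternatively activated macrophages, stood at 383 ± 213, 11.5 ± 1.76 and 149 ± 169 CPM against 0.0978 ± 0.0675, 0.0425 ± 0.0560 and 0.639 ± 0.177 CPM.

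At D21 these lists gave 4 of 7, 2 of 4 tested, 1 of 5 and 2 of 7 tested calls in the same order, all higher (4.13% of all genes), with medians of 1.67, 1.21, 0.76 and 0.81. Saa3, Timp1 and Lcn2, Il18rap and Il18r1, Osm, and Arg1 and Chil3 were the called genes with the largest changes. On the STAT6 list, and named after its values were seen, Retnla was lower in every EAM heart than in every control heart at D21, at 1.89 ± 1.20 against 5.14 ± 1.26 CPM, without meeting the criteria (edgeR adjusted p = 0.0277). None of the listed genes was called at D10, where the medians were 1.03 for STAT3, 1.06 for STAT4, 0.78 for STAT5 and 0.71 for STAT6 targets, beside -0.01 for all genes. Without D10 EAM replicate 1 these medians were 0.81, 0.22, 0.14 and 0.41. Some genes stand on more than 1 list (Ifng, Osm, Osmr, Il2ra, Il4ra, Il12rb2 and Socs2), so the lists are not separate counts.

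**Figure D5:**
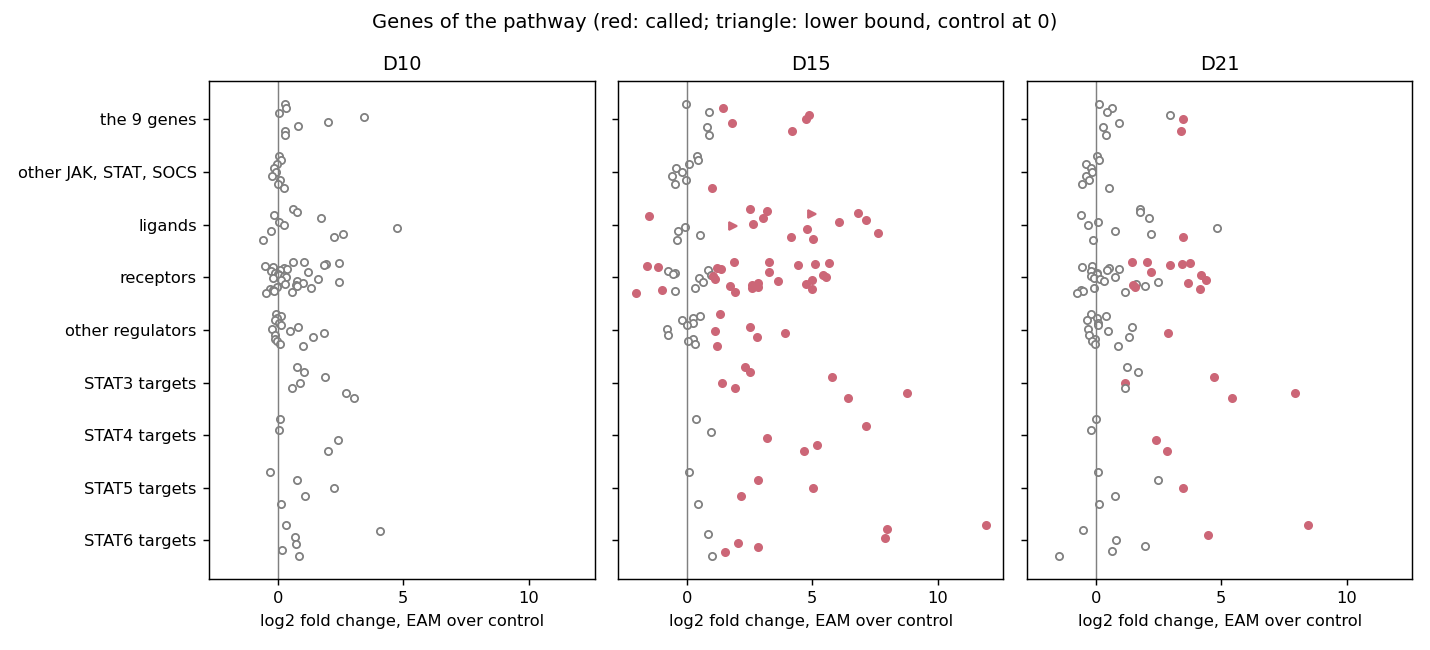
Log2 fold change of EAM over control hearts (horizontal) for each tested gene of the 9 genes and of the pathway lists (rows) at D10, D15 and D21, with called genes in red, other genes open, and triangles at the lower bound of the 2 ligands without control reads. At D10 no point is red, at D15 all STAT3 targets are, and at D21 fewer are.

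The genes whose pattern over the 24 hearts was most like each of the 9 were found among 14217 genes by the root mean square (RMS) difference of log2(CPM + 1), after the mean of the 12 controls had been subtracted. They were Ppp1r15b, Actr2 and Ccdc86 for Jak2 (RMS 0.103 to 0.115) and Pxn, Grk6 and Lmbr1l for Jak3 (0.139 to 0.153). For the transcription factors they were Parp10, Parp14 and Dtx3l for Stat2 (0.127 to 0.152), Hsp90b1, Nop2 and Nop58 for Stat3 (0.094 to 0.114), Klrd1, Rab43 and Kmo for Stat4 (0.154 to 0.198) and Poldip3, Scamp2 and Rpn2 for Stat6 (0.080 to 0.083). For the inhibitors they were Ifi47, Gpr84 and Klra2 for Socs1 (0.270 to 0.331), Ms4a6d, Ccr1 and Msr1 for Socs3 (0.393 to 0.459) and Adcy4, Gtf2b and Sh3bp4 for Cish (0.220 to 0.252). All 24 hearts enter this measure with their depth and composition, and it is a description without a test.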

How the data were processed

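RNA sequencing of a portion of each of 24 hearts was analysed, 4 per group and 6 groups, from 75 bp paired-end directional mRNA libraries. The authors mapped reads with HISAT2 (version 2.0.4 per the labels) to GRCm38, removed duplicates with Picard and counted reads per Ensembl gene with featureCounts, and these raw counts were deposited without normalization. Totals per library were 15814863 to 24980864 counts. Removing duplicates can lower the counts of highly expressed genes, and the floor of 3 counts covers counting error only. No 2 replicates agreed within sampling noise (lowest chi-square per degree of freedom 5.14), and no column of the table was left without a sample.

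For each time point the 8 hearts were fitted on their own with edgeR 4.0.16 (R 4.3.3), after TMM normalization, with genes of at least 10 reads in at least 4 hearts and no covariate. The study's methods name edgeR, a filter at the equivalent of 10 reads in 4 samples and a comparison per time point. Applying the filter to raw reads, which may keep other genes than the study's, TMM and the lack of a covariate were set here. The quasi-likelihood test with Benjamini-Hochberg adjustment over all genes tested was used, and a gene was called at FDR below 0.01 and at least 2-fold. Differences of the EAM effect were contrasts in a fit of all 24 hearts, and control hearts were compared over time in a fit of the 12 controls. Standard errors were derived from the F statistic. Alternatives were the likelihood ratio test, DESeq2 1.42.0, limma-voom (limma 3.58.1), other normalizations, no filter, other limits, a replicate block, leaving out each heart and, chosen after the data were seen, the earlier form of the quasi-likelihood test. Symbols were taken from a gene name table (40254 of 41388 genes matched), and coordinates from GENCODE M21. The scripts were tested on simulated data.

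The members and the gene lists were chosen with earlier results of these data known, and 1 gene and 1 list of the pathway are not reported here. Genes of the lists named in the text are the up to 3 called genes with the largest change per list and time point at a mean of at least 1 CPM, and called genes of the opposite direction. Values recovered from the deposited table and from the files of single samples were identical.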

Additional observations from a re-analysis of the deposited data

Results flagged for a closer look

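In the groups of 4 hearts, a single heart was far from the other 3 by Dixon's criterion in 4 of 54 groups, where chance gives about 1 in 20. Jak2 stood at 132 CPM in D10 EAM replicate 1, against a group median of 72.3 CPM, and Socs1 at 62.4 CPM in the same heart, against 7.30 CPM. That heart also held 194 CPM of Ptprc, and its heart muscle markers summed to 17760 CPM, the lowest of the D10 hearts. At D15, Jak2 was lowest in EAM replicate 2 at 147 CPM (median 165 CPM), and Socs3 was lowest in control replicate 1 at 8.65 CPM (median 9.73 CPM). Both of these gaps are small beside the difference between EAM and control hearts.

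The effect of EAM differed between D10 and D15 for Jak2, by 1.04 on the log2 scale, and for Socs3, by 2.69, in the contrast of the 2 time points (edgeR adjusted p = 0.00488 and 0.00589). D10 EAM replicate 1 held Jak2 and Socs3 near the D15 levels, and the differences without it were 1.37 and 3.32.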

How the results depend on the processing

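The 5 calls at D15 were made when any single heart was left out (5 each time) and by every other test and normalization. Without the limit on the fold 8 of the 9 were called there (33.2% of all genes higher), and with normalization by total counts, which moved the median log2 fold change of all genes at D15 to 0.17, Jak3 and Stat6 passed 2-fold as well, giving 7 (20.4% of all genes higher). At D21 limma-voom called 0 and the replicate block 1 (Stat4) of the 9, while the likelihood ratio test and DESeq2 called 3 (0.524%, 3.94%, 8.88% and 8.94% of all genes called higher, against 4.13%), and leaving out 1 heart gave 0 to 3. The D21 contrast in the fit of all 24 hearts, and an FDR limit of 0.05 with at least 2-fold, also called 3 each (9.28% and 9.3% of all genes higher). From D10 to D15 the likelihood ratio test and DESeq2 called 3 each (7.65% and 8.05% of all genes higher), limma-voom called 1 and the FDR without a limit on the fold 4 (5.06% and 9.37% of all genes higher, against 5.38%), and leaving out 1 heart gave 0 to 5. From D15 to D21 leaving out 1 heart gave 0 to 2. In controls limma-voom called 0 at D15 against D10, and leaving out 1 heart gave 0 to 1 for both later time points. The cause was not tested. Signs changed only in values near 0. For Cish at D15 the log2 fold change of -0.02 became 0.016 with limma-voom, 0.13 with total counts and 0.013 with the replicate block, and ranged from -0.14 to 0.17 when 1 heart was left out. Other such ranges were -0.017 to 0.14 for Jak3 at D10, -0.062 to 0.24 for Cish at D21, -0.011 to 0.32 for the change of the Cish effect from D15 to D21, -0.33 to 0.12 for Cish in controls at D15 against D10 and, in controls at D21 against D10, -0.060 to 0.067 for Stat2, -0.0055 to 0.065 for Stat6 and -0.30 to 0.091 for Cish. Apart from leaving out hearts, 457 of 472 values of single genes kept their direction and their side of the criteria, 7 passed them in addition, 5 no longer did and 3 changed sign. EAM and control hearts share replicate numbers, but deviations of same-numbered hearts correlated above 0.1 in only 5 of 12 pairs (2 of 4 at D10, 0 of 4 at D15 and 3 of 4 at D21), so the numbers were not taken as pairs. A fit with the replicate block called 1 of 9 at D21, where the Socs3 call was lost, 0 of 8 tested at D10 and 5 of 9 at D15. Over all genes it called 3.94%, 0.00665% and 17.7% higher. At D21 each control correlated best with the EAM heart of its own number, and EAM replicate 1 did not. At a floor of 0.120 to 0.190 CPM, Stat4 in controls could not be measured closely.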
